A study of Mus musculus with 12 samples.

Results

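Lars2 encodes the mitochondrial leucyl-tRNA synthetase, and its expression was described here beside that of 8 genes of the same kind, Aars2, Cars2, Ears2, Fars2, Hars2, Iars2, Mars2 and Nars2. The 9 genes were chosen by symbol among the 24480 genes of the deposited tables, and all 9 passed the filter on low counts in both experiments. Lars2 itself was chosen because its values varied between libraries and were lower after YAP overexpression in an earlier analysis of these data. Its replicate spread and its difference between YAP OE and CTR OE are therefore given as a description, with no test.

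The RNA came from E14Tg2a, 1 established line of undifferentiated mouse embryonic stem cells (ESCs) grown without feeders in serum and leukemia inhibitory factor. In the knockdown experiment the cells were transiently transfected with Stealth siRNAs against Yap1 (YAP KD) or with scrambled siRNA in the control group (CTR KD). For overexpression the cells were given a plasmid with the mouse YAP coding sequence under the ubiquitous CAG promoter (YAP OE) or, in CTR OE, a plasmid encoding GFP per the labels and an empty one per the study's text. All 4 groups were transfected, with 3 libraries each, and no sorting of transfected cells is described. YAP is a transcriptional coactivator of the Hippo pathway, and the comparisons ask how RNA levels differ when it is reduced or added.

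Aminoacyl-tRNA synthetases attach each amino acid to its own tRNA before translation. Mitochondria translate the few proteins encoded by their own genome on separate ribosomes, and most of the synthetases they use, whose symbols end in 2, are made from nuclear genes distinct from those of the cytosol. In humans, inherited variants of several of these genes, LARS2 and HARS2 among them, cause disease of tissues with a high demand for mitochondrial energy or hearing loss with ovarian failure. The 9 enzymes act on leucine (Lars2), alanine (Aars2), cysteine (Cars2), glutamate (Ears2), phenylalanine (Fars2), histidine (Hars2), isoleucine (Iars2), methionine (Mars2) and asparagine (Nars2).

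The libraries held 4.29e+07 to 5.72e+07 expected counts, and every pair of replicates differed beyond counting noise (chi-square over degrees of freedom 3.39 to 24.2). The summed level of 9 markers of ESCs was 5613 to 6208 CPM (library-scaled counts with TMM factors, a value relative to the library total) in every library, and none of the 9 was at 0. Summed over 7 trophoblast markers the level was 7.08 to 7.81 CPM in CTR OE and 9.37 to 12.9 CPM in YAP OE. There Cdx2 and Gata3 were among the differentially expressed genes, 2 of the 5 trophoblast markers tested, against 2.13% of all genes tested. All 5 had an unadjusted p under 0.05, against 13.1% of all genes tested. Sums of 6 primitive endoderm markers were 6.08 to 7.43 CPM in CTR OE and 7.72 to 8.62 CPM in YAP OE. Of these Dab2 alone was called (1 of 6 tested, against 2.13% of all genes). It was also the only one at an unadjusted p under 0.05 (13.1% of all genes). The 6 log2 fold changes ranged from -0.26 to 0.63 with a median of 0.08. In the knockdown experiment the trophoblast sums were 4.83 to 5.52 CPM in CTR KD and 5.67 to 6.35 CPM in YAP KD, and the sums of 6 fibroblast markers were 3.53 to 3.94 and 4.07 to 4.68 CPM. There edgeR called none of the tested markers of these lists, against 5.49% of all genes tested. The counts were 0 of 9 for ESCs, 0 of 3 for trophoblast, 0 of 6 for primitive endoderm and 0 of 5 for fibroblasts. Of the 9 ESC markers 5 had an unadjusted p under 0.05, against 19.6% of all genes tested (median log2 fold change of the 9, -0.12). The same count was 1 of 3 for trophoblast, 0 of 6 for primitive endoderm and 2 of 5 for fibroblast markers. Their median log2 fold changes were 0.30, 0.12 and 0.10. No marker was at 0 in a whole group. The part of these markers in the values of Lars2 was not tested. The targeted gene followed the labels. Yap1 was 116, 135 and 125 CPM in CTR KD and 58.5, 54.9 and 56.6 CPM in YAP KD, and passed the test (log2 fold change of -1.14 with SE 0.0568, edgeR adjusted p = 4.36e-05). It was 134, 130.2 and 134 CPM in CTR OE and 277, 256 and 244 CPM in YAP OE, and passed the test there (log2 fold change of 0.97 with SE 0.0470, edgeR adjusted p = 3.47e-08).

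In the knockdown experiment Lars2 was 199.9, 177 and 146 CPM in the 3 CTR KD libraries and 72.2, 154 and 83.5 CPM in the 3 YAP KD libraries. The second YAP KD library lay above the lowest control, so the groups overlapped. Mean levels were 175 ± 26.9 CPM and 103 ± 44.0 CPM (SD, n = 3 each). The log2 fold change was -0.76 (SE 0.238, edgeR unadjusted p = 0.00992, adjusted p = 0.107), and Lars2 was not among the 802 differentially expressed genes, 5.49% of the 14606 tested (2.71% higher and 2.78% lower in YAP KD). The adjusted p fell to 0.0333 when no filter beyond 1 count was set. Without YAP KD replicate 2 the log2 fold change was -1.16 and the adjusted p was 0.00351, so whether Lars2 was called depended on that library and on the filter. In bulk RNA, fewer cells that express a gene and less RNA per cell cannot be told apart.

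In the overexpression experiment Lars2 was 304, 782 and 320 CPM in CTR OE and 168, 243 and 147 CPM in YAP OE. All 3 YAP OE libraries lay below all 3 controls, as for 7.9% of the 14804 genes tested, and the second CTR OE library was 2.51 times the mean of its 2 replicates. Mean levels were 469 ± 271 CPM and 186 ± 50.3 CPM (SD, n = 3 each), and the log2 fold change was -1.33 (SE 0.271). Without CTR OE replicate 2 it was -0.75. The log2 fold changes were thus negative in both experiments, although Yap1 itself was lower in one and higher in the other. The 2 control groups differed as well. The lowest CTR OE value, 304 CPM, was above the highest CTR KD value, 199.9 CPM, and the means differed 2.68-fold. The kind of nucleic acid transfected and any difference between the 2 experiments cannot be told apart in that comparison.

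**Figure D1:**
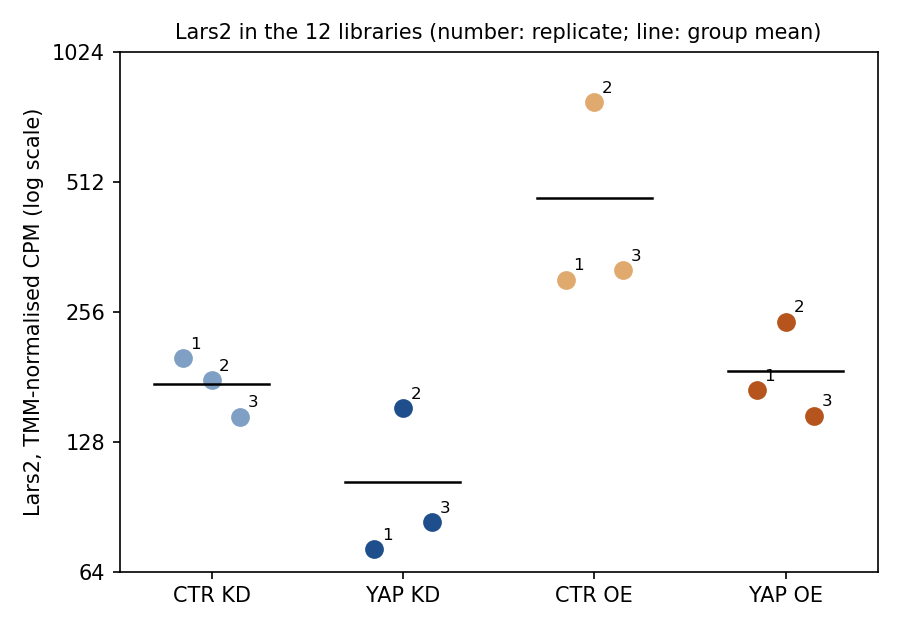
Lars2 level in each of the 12 libraries (TMM-normalised CPM, log axis) by group; points are libraries with their replicate numbers and lines are group means. YAP KD replicate 2, at 154 CPM, lies within the CTR KD range of 146 to 199.9 CPM, and CTR OE replicate 2, at 782 CPM, stands above all other libraries.

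The other 8 synthetases were nearly constant. From the lowest to the highest of the 12 libraries Lars2 spanned 10.8-fold, whereas the other 8 spanned between 1.07-fold (Iars2) and 1.29-fold (Ears2). In YAP KD 0 of the 8 were called by edgeR, against 5.49% of all genes tested, with log2 fold changes from -0.02 to 0.12. Only Cars2 had an unadjusted p under 0.05, as had 19.6% of all genes tested. In YAP OE 0 of the 8 were called, against 2.13% of all genes tested (1.66% higher and 0.473% lower), with log2 fold changes from -0.08 to 0.13. Only Ears2 had an unadjusted p under 0.05, as had 13.1% of all genes tested. DESeq2 also called 0 of the 8 in either experiment. The median log2 fold change of the 8 was 0.01 in YAP KD and -0.03 in YAP OE, beside 0.0058 and -0.0025 for all genes tested. The 95% intervals of all 8 (from the t distribution of the fit) lay between -0.13 and 0.22 on the log2 scale in YAP KD and between -0.18 and 0.24 in YAP OE, that is between 0.885-fold and 1.18-fold.

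Cars2, which charges mitochondrial tRNA with cysteine, was 33.9, 35.2 and 35.3 CPM in CTR KD and 38.6, 36.5 and 38.3 CPM in YAP KD. The groups did not overlap, and the log2 fold change was 0.12 (SE 0.0432, edgeR adjusted p = 0.145). It was 37.5, 35.7 and 35.0 CPM in CTR OE and 34.8, 32.8 and 34.6 CPM in YAP OE, again without overlap (log2 fold change of -0.08 with SE 0.0448, edgeR adjusted p = 0.485). Cars2 thus lay in opposite directions in the 2 experiments, by less than 10% each time and without passing the test.

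Ears2, the glutamyl-tRNA synthetase, was 22.6, 20.6 and 20.5 CPM in CTR KD and 21.2, 20.3 and 22.5 CPM in YAP KD, with overlapping groups. It was 22.6, 23.4 and 22.2 CPM in CTR OE and 23.9, 24.5 and 26.3 CPM in YAP OE. All YAP OE values lay above the controls, and the log2 fold change was 0.13 (SE 0.050, edgeR adjusted p = 0.239). Iars2, the isoleucyl-tRNA synthetase and the closest to Lars2 in CPM, was 85.4 to 91.0 CPM over all 12 libraries. Its YAP OE libraries, at 87.6 to 89.3 CPM, lay just above the CTR OE libraries, at 85.4 to 87.4 CPM, and the log2 fold change was 0.03 (SE 0.0356, edgeR adjusted p = 0.777).

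Aars2, the alanyl-tRNA synthetase, was 45.4 to 47.1 CPM in CTR KD and 47.3 to 48.5 CPM in YAP KD, without overlap, and its groups overlapped in the other experiment. Fars2 (15.4 to 19.0 CPM), Hars2 (21.3 to 23.8 CPM), Mars2 (18.7 to 20.7 CPM) and Nars2 (19.4 to 21.3 CPM) overlapped between YAP and CTR in both experiments. Groups without overlap were found for 2 of the 8 genes in YAP KD (25.0%) and for 3 of the 8 in YAP OE (37.5%), against 25.7% and 18.2% of all genes tested. In YAP KD 12.8% of all genes lay without overlap above the controls and 12.9% below, and in YAP OE 10.3% lay above and 7.9% below.

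**Figure D2:**
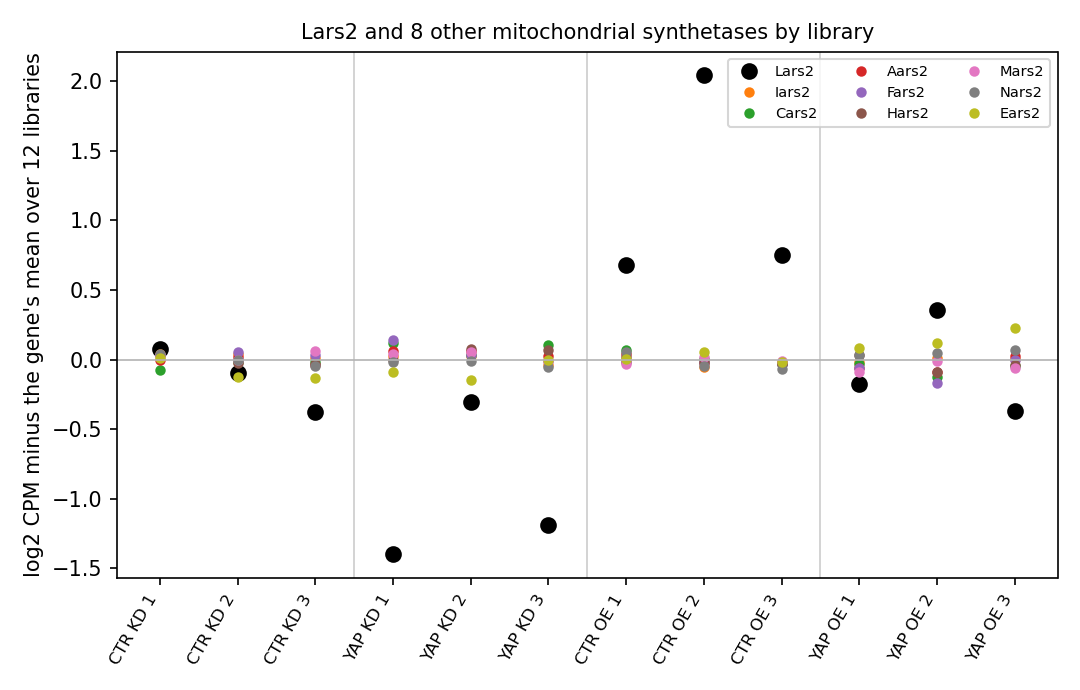
Level of the 9 synthetases in each library as log2 CPM minus the gene's own mean over the 12 libraries; the large black points are Lars2 and the small coloured points the other 8. The other 8 stay near 0 in every library (lowest to highest at most 1.29-fold), while Lars2 spans 10.8-fold.

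**Figure D3:**
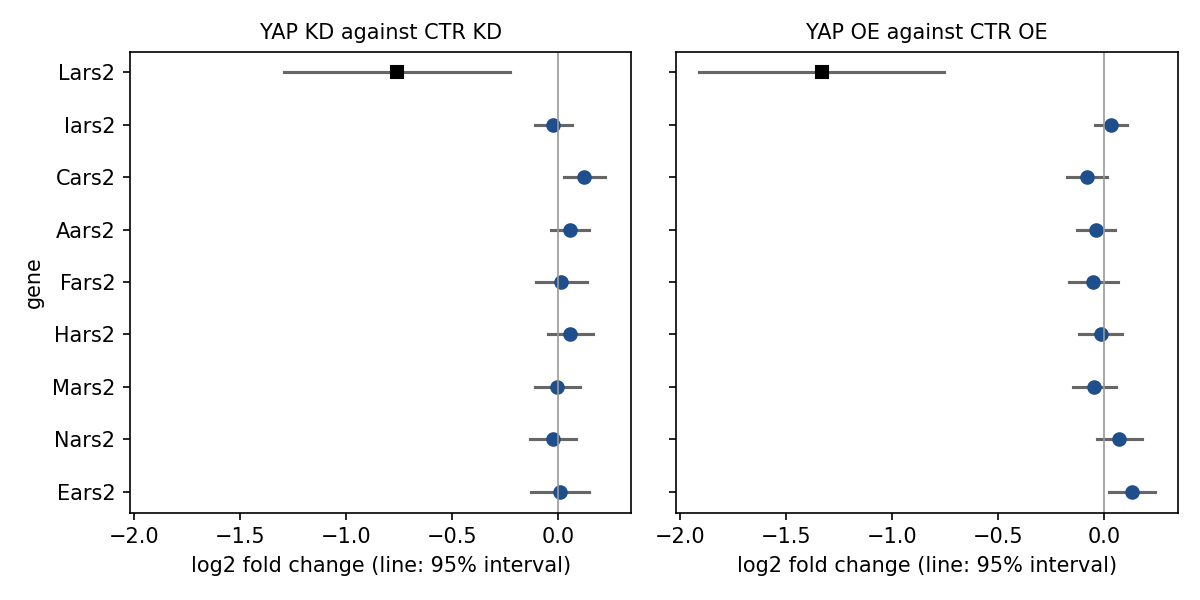
Log2 fold change of each synthetase in YAP KD against CTR KD (left) and in YAP OE against CTR OE (right); lines are 95% intervals from the SE and the square is Lars2. Lars2 is at -0.76 and -1.33, and the other 8 lie between -0.08 and 0.13. Lars2 was chosen by its difference in YAP OE, so its interval there is a description and not a test against 0.

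Whether Lars2 departed from its family was tested in the knockdown, whose group difference was not the one that chose it. The knockdown libraries were still part of the variation between libraries for which Lars2 was chosen, so this test is not fully independent of the choice. The log2 level of Lars2 minus the mean log2 level of the other 8 was 2.55 ± 0.210 in CTR KD and 1.70 ± 0.580 in YAP KD (SD, n = 3 each), a difference of -0.85 (exact permutation test, two-sided, p = 0.2). With 3 libraries against 3 the smallest p is 0.1, so this design cannot pass 0.05. In the overexpression experiment the same quantity was 3.84 ± 0.769 in CTR OE and 2.63 ± 0.40 in YAP OE, a difference of -1.22, and -0.77 without CTR OE replicate 2.

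The replicates of Lars2 lay far apart within groups. Pooled over the 4 groups, the within-group SD of its log2 CPM was 0.526, and 5 of 12396 genes (mean expected count of 50 or more) had a larger one. Among the 659 genes with at least its mean count 0 had a larger one, the next being the replication-dependent histone genes Hist1h2ao (0.501) and Hist1h2ad (0.40) and the U1 small nuclear RNA gene Rnu1a1 (0.348). The other 8 synthetases were at 0.0226 (Iars2) to 0.0663 (Ears2), all below the median of the 12396 genes at 0.0736. That median includes genes with few counts. The median of the 659 genes was 0.0539, which Ears2 and Fars2 (0.0559) exceeded. Lars2 had 3044 to 38217 expected counts per library and the other 8 had 673 to 4986.

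**Figure D4:**
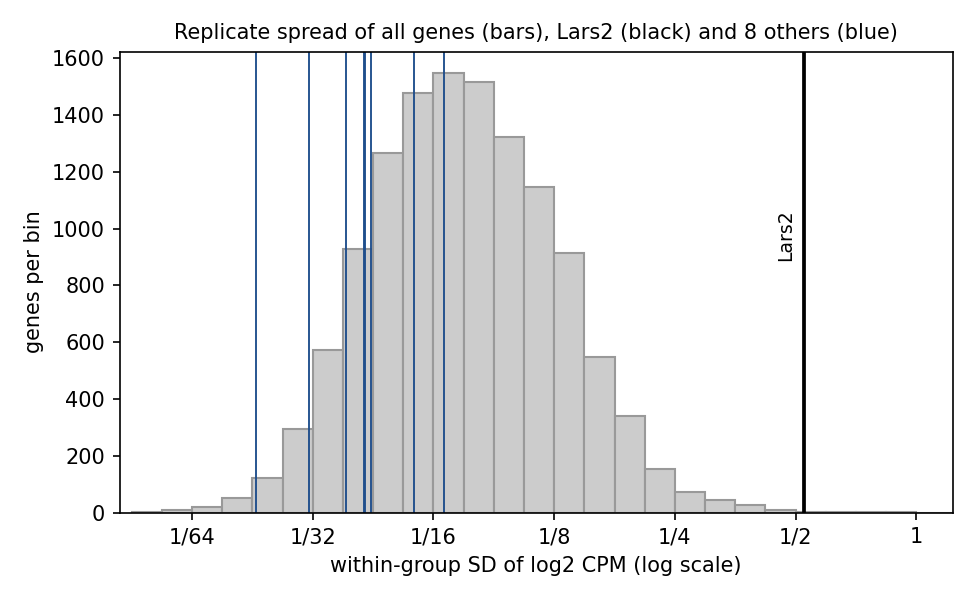
Number of genes (bars) by within-group SD of log2 CPM, pooled over the 4 groups (log axis), with a black line for Lars2 and blue lines for the other 8 synthetases. Lars2 is at 0.526, at the right end of the distribution, and the other 8 lie between 0.0226 and 0.0663.

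Compared per kilobase of deposited effective length, the only scale used here to set genes against each other, the order of mean levels was the same in all 4 groups: Lars2, Iars2, Cars2, Aars2, Fars2, Hars2, Mars2, Nars2 and Ears2. Lars2 was 47.1, 27.8, 126 and 50.3 CPM per kilobase in CTR KD, YAP KD, CTR OE and YAP OE, and Iars2 was 26.9, 26.5, 25.7 and 26.3. Lars2 and Iars2 overlapped in YAP KD, and Hars2 and Mars2 overlapped in CTR KD and in YAP OE. All other neighbours in that order were separate in every group. The order depended on the lengths, since the deposited length is 6528 bases for Ears2 and 3540 for Iars2 and the longest reference transcript of each is 2046 and 5471 bases. With the reference lengths, an alternative chosen after seeing the data, Lars2 stayed first and Aars2 the fourth in every group, whereas Cars2 lay above Iars2, Mars2 above Hars2 and Ears2 moved from the ninth to the fifth place. On the deposited lengths Lars2 was 2.07 times the median of the other 8 in YAP KD replicate 1 and 24 times in CTR OE replicate 2, while that median itself was between 8.11 and 9.44 CPM per kilobase. Lars, the cytosolic leucyl-tRNA synthetase, was 506 to 580 CPM over the 12 libraries, with log2 fold changes of -0.07 in YAP KD and 0.07 in YAP OE (edgeR adjusted p = 0.368 and 0.571).

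Lars2 lies at chr9:123366927-123462675 of mm10 (RefSeq gene on GRCm38.p6). Of the members described above, Cars2 lies at chr8:11514017-11550781, Ears2 at chr7:122034162-122067094 and Iars2 at chr1:185286642-185329419 of the same build. The deposited length of Lars2 was 3881 bases in all 12 libraries and its expected counts were whole numbers in each, as where RSEM divides no read between a gene and another annotated one. The length equals that of its GENCODE transcript on the mm9 genome, where the gene lies at chr9:123276058-123371782 on the plus strand and the 3′ untranslated region (UTR) takes the last 986 bases.

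That transcript was searched against the mm9 genome for other places of like sequence. Bases 3009 to 3406 of Lars2, 398 bases within the 3′ UTR and 10.3% of the transcript, gave 21 matches elsewhere on 12 chromosomes at 82.2% to 98.8% identity (median 95.2%). No match fell in the coding sequence. Of the 21 matches, 9 were in introns, 9 in no annotated gene and 3 in exons of Gm15564 and AA474408, genes not among those of the count tables. The matches in AA474408, chr7:117203201-117203294 and chr7:117203293-117203342, adjoin and are not separate places. The longest was chr12:79451917-79452160 in an intron of Gphn (244 bases, 97.5% identity), and chr6:49186449-49186616, outside genes, was at 98.8% identity over 168 bases. Of the other members Aars2 had 7 such matches, Nars2 5, Hars2 2 and Fars2 1, at no more than 90.1% identity, and Cars2, Iars2 and Mars2 had 0. The Ears2 transcript searched also had 0, but its 2046 bases are fewer than the 6528 counted for that gene, so most of the counted sequence was not searched. For Hars2, 1 place on chromosome X matched over 2352 bases at 86.7% identity. Reads could not be placed along the transcript from gene totals, and the part of these matches in the Lars2 counts was not tested.

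Library composition was then set beside Lars2 over the 12 libraries. The 9 measures were the total expected count, a measure of fragment length (the median of length minus effective length), the share of counts in entries whose count was not whole, the share of the 100 highest entries, and the shares of small RNAs, replication-dependent histones, nuclear long noncoding RNAs (Malat1 and Neat1), cytosolic ribosomal protein genes and mitochondrially encoded genes. Ribosomal RNA was not among them, because its 26 entries held 3 counts in all, so its share was not measured. The 9 measures had no part in the choice of Lars2, although its own values had. Of the 9 correlations with log2 Lars2, 0 passed an adjusted p of 0.05 by Pearson or by Spearman (permutation tests, Benjamini-Hochberg over 10 measures, Yap1 being the tenth). At an unadjusted p under 0.05 there was 1, the nuclear lncRNA share by Spearman's rho. Correlations over the 12 libraries include any difference between the 4 groups. The permutations moved values freely between these groups, so their p-values are approximate.

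The nuclear lncRNA share was 0.451% to 0.781% of expected counts, with r = 0.48 (permutation p = 0.117, adjusted p = 0.942) and rho = 0.66 (permutation p = 0.0210, adjusted p = 0.210). With group means removed r was 0.32 and rho 0.38. Without the 2 libraries farthest from the median share r was 0.30, within the knockdown libraries it was 0.34 and within the overexpression libraries, as a description, 0.42. The cytosolic ribosomal protein share, 8.5% to 9.07%, had r = -0.33 (permutation p = 0.288, adjusted p = 0.942) and rho = -0.51 (permutation p = 0.0922, adjusted p = 0.461), and r = -0.32 without the 2 farthest libraries. For the other 7 measures r was between -0.23 (fragment length) and 0.15 (the share in entries that were not whole).

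CTR OE replicate 2, the library with the highest Lars2 level, was not at an end of any of the 9 measures, ranking between the third and the seventh highest of 12. It held 12.1% small RNA, 0.703% nuclear lncRNA and 1.91% mitochondrially encoded counts. YAP KD replicate 1, with the lowest Lars2 level, had the lowest nuclear lncRNA share, 0.451%, and the longest fragment measure, 185 bases. Within each experiment the values of Yap1 fall into separate clusters by group. Those of the control groups overlapped, at 116 to 135 CPM in CTR KD and 130.2 to 134 CPM in CTR OE. A correlation across groups would largely repeat the group differences made by the treatments, so none is given. With the group means removed from both genes r was -0.28 (permutation p = 0.372, n = 12 libraries). The permutation moved values between groups of unlike spread and made no allowance for the removed means, so this p is approximate. At this number of libraries no relation of Lars2 with Yap1 within groups was detectable.

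**Figure D5:**
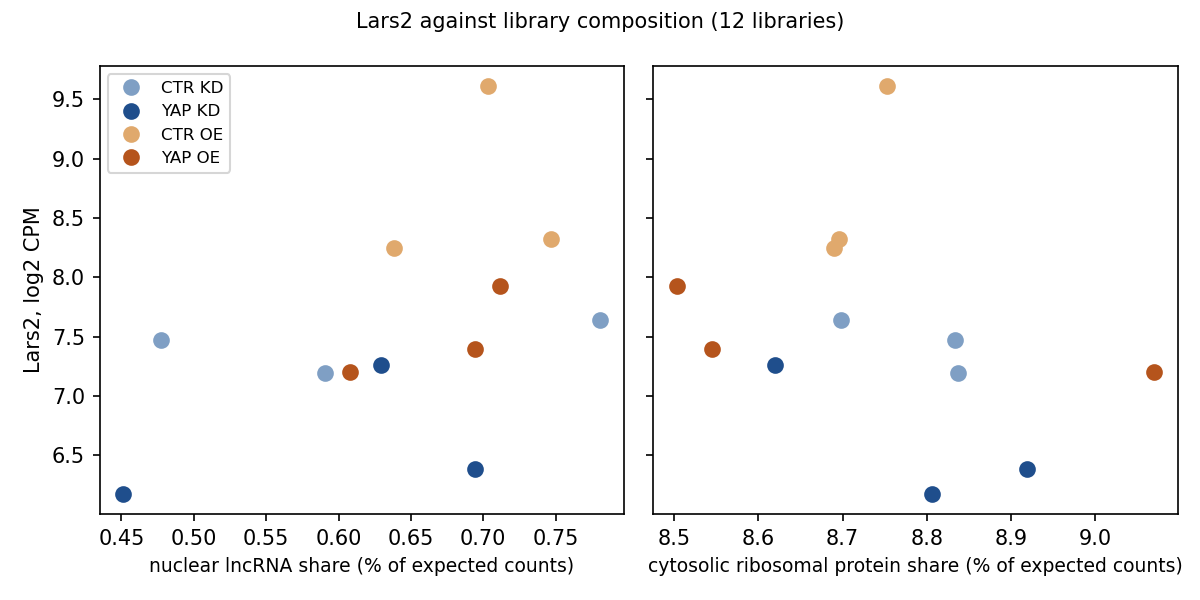
Lars2 (log2 CPM) against the share of expected counts in nuclear lncRNAs (left) and in cytosolic ribosomal protein genes (right); each point is a library, coloured by group. The 2 measures with the largest correlations are shown, r = 0.48 and r = -0.33, and neither passed the adjusted threshold.

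The other 8 synthetases did not follow Lars2 as a set, as a description over 12 libraries that share their scaling. Their r with Lars2 was between -0.47 (Iars2) and 0.25 (Ears2), and between -0.62 (Cars2) and 0.50 (Mars2) with group means removed. Among the 12395 genes compared, a number that includes Lars2, those most like it in log2 CPM were Plekhh2 (r = 0.94), Mrpl47 (0.86), Asb13 (0.85), Cdk18 (0.85) and Kcnh8 (0.85). Their own levels spanned only 1.17-fold (Mrpl47) to 1.57-fold (Kcnh8), far less than the span of Lars2. With group means removed the 5 nearest were Etfdh (r = 0.93), Skida1 (0.91), Atxn1 (0.91), Nhs (0.90) and Fhl4 (0.90), none of which is in the first 5. Both sets were picked as the highest among that many genes over only 12 libraries. Their r values are raised by the choice and were not tested. Mrpl47, a protein of the large mitochondrial ribosomal subunit, was 28.0 to 32.7 CPM.

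The remaining genes of tRNA charging and mitochondrial translation were described by counts. Among 10 further synthetases that act in mitochondria, including Gars and Kars, whose genes serve the cytosol as well, edgeR called 0 in YAP KD and 0 in YAP OE, against 5.49% and 2.13% of all genes tested. At an unadjusted p under 0.05 there were 0 and 1, against 19.6% and 13.1% of all genes (Gars, log2 fold change 0.11, adjusted p = 0.249), and DESeq2 called 0 in each. Their median log2 fold change was -0.01 in YAP KD and 2.39e-05 in YAP OE. Among 18 genes of cytosolic synthetases edgeR and DESeq2 called 0 in either experiment, with medians of -0.04 and 0.02. There 2 and 0 had an unadjusted p under 0.05, a smaller share than over all genes. They were Cars (log2 fold change -0.14) and Nars (-0.10) in YAP KD.

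Genes that act in mitochondrial translation or on mitochondrial tRNA were counted in the same way. Among 14 translation factors of mitochondria, such as the elongation factors Tufm and Gfm1, edgeR and DESeq2 called 0 in both experiments (5.49% and 2.13% of all genes were called), with 0 at an unadjusted p under 0.05 (19.6% and 13.1% of all genes) and median log2 fold changes of 0.04 and 0.01. The same counts were found for 16 genes that process or modify mitochondrial tRNA, such as Elac2, which trims the 3′ end, and Trmu, which adds sulfur to tRNA, with medians of -0.01 and -0.03. A further 2 listed symbols matched no entry of the tables. Of 77 mitochondrial ribosomal protein genes 2 rose in YAP KD, Mrpl45 (log2 fold change 0.16, edgeR adjusted p = 0.0377) and Mrpl51 (0.19, adjusted p = 0.0237), against 2.71% of all genes tested that were higher. In YAP OE 0 of the 77 were called by edgeR or by DESeq2, against 2.13% of all genes called by edgeR, and 3 had an unadjusted p under 0.05, against 13.1%. The median of the 77 was 0.04 in YAP KD and -0.02 in YAP OE.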

How the data were processed

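The authors aligned RNA-Seq reads of total RNA with STAR to mm10 and estimated gene levels with RSEM on curated RefSeq genes. Versions and strand settings are not given in the sources used here. Per library the authors deposited expected counts (estimated, not normalized, summing to 4.29e+07 to 5.72e+07), TPM and FPKM. The deposited TPM served in alternative fits, and FPKM was only read per library.

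The expected counts were rounded before any test. Each experiment (6 libraries) was fitted in edgeR 4.0.16 (R 4.3.3) with filterByExpr, TMM factors and the two-sided quasi-likelihood F test. Benjamini-Hochberg adjustment ran over all genes kept, and genes with an adjusted p under 0.05 were called. SE is the absolute log2 fold change divided by the square root of F. Levels are CPM after TMM scaling over the 12 libraries, and logs used CPM + 0.5. The fit was tested on simulated data. Members, lists and tests were chosen with earlier results of these data known. The named genes were the 9 members, the genes of the lists, Yap1, entries of the composition measures, and the 5 genes most correlated with Lars2 with and without group means (mean of at least 50 counts). Other genes named, those of largest replicate spread or sequence matches and the mitochondrial ribosomal protein genes called, were chosen after their values were seen.

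Cytosolic ribosomal protein genes were taken by symbols that begin with Rpl or Rps and a digit, which includes some kinases. After the data were seen, the ribosomal RNA share was left out because its 26 entries held 3 counts in all, and mitochondrially encoded genes were found by symbol because the planned mt- prefix matched 0 entries. Transcripts of the reference (mm9, GENCODE) were searched with blastn 2.17.0 (e-value 1e-10), and coordinates were not converted between builds. Correlations used 100000 permutations, or exact permutation within an experiment. The study describes 3 independent samples in each group. Alternatives were other normalizations, filters, tools, units, a replicate block and leaving out each library.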

Additional observations from a re-analysis of the deposited data

How the results depend on the processing

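Lars2 kept its negative log2 fold change under all 15 alternatives in each experiment. In YAP KD it was not called except with no filter beyond 1 count (-0.77, adjusted p = 0.0333) and without YAP KD replicate 2, each of which gave 1 called member of 9 in place of 0; other adjusted p-values were 0.0849 to 0.304. Leaving out 1 library gave -1.16 to -0.56 in YAP KD and -1.57 to -0.75 in YAP OE, with 0 to 1 of the 9 members called in YAP KD and 0 of the 8 other than Lars2 in YAP OE. Correlations between CTR and YAP replicates of the same number were -0.349 to 0.0621, and of unlike numbers -0.158 to 0.353. With 3 libraries a group they cannot settle whether the numbers pair the samples. The study names paired samples for its Student's t tests. With the replicate number as a block Lars2 was at -0.82 in YAP KD (edgeR adjusted p = 0.132) and -1.22 in YAP OE. The block moved the calls over all genes in YAP KD from 802 to 193 and in YAP OE from 316 to 280. The difference between Lars2 and its family kept its sign under all 10 alternatives (-1.18 to -0.63 leaving out 1 library), and its p was 0.1 to 0.3.

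The other 8 members were called in 0 of 240 refits (lowest adjusted p = 0.0950). Signs turned 13 times, for genes with a log2 fold change of at most 0.0163 in size: in YAP KD Ears2 under log2(TPM + 1) (-0.0023) and log2(TPM + 0.1) (-0.0062) and leaving out 1 library (-0.035 to 0.052), Fars2 under the same units (-0.0027, -0.0035) and leaving out 1 library (-0.029 to 0.046), Mars2 leaving out 1 library (-0.021 to 0.011); in YAP OE Hars2 under the TPM units (0.0083, 0.0085) and leaving out 1 library (-0.050 to 0.0091). Mitochondrial ribosomal protein genes called in YAP KD were 1 with no filter beyond 1 count.

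Calls over all genes were 1261 in YAP KD with 1 fit over 12 libraries, 74 and 47 with the 2 TPM units, and 298 to 1019 leaving out 1 library; in YAP OE they were 556 with no filter beyond 1 count, 87 and 68 with the TPM units, and 154 to 327. No correlation of a composition measure passed the adjusted threshold under any alternative. Among the 9 measures signs turned for small RNA (knockdown libraries 0.017, overexpression libraries 0.074), histones (group means removed -0.061, without the 2 farthest libraries -0.011, without CTR OE replicate 2, chosen after seeing the data, -0.11), total counts (group means removed -0.48, overexpression libraries -0.31), entries not whole (group means removed -0.12), the 100 highest entries (knockdown libraries 0.059), fragment length (without the 2 farthest 0.12) and mitochondrially encoded genes (group means removed 0.200, overexpression libraries 0.47). The causes were not tested. With 3 libraries a group, precision for Lars2 is set by the spread between libraries (within-group SD 0.526 at 3044 to 38217 expected counts). For the other 8 members (0.0226 to 0.0663 at 673 to 4986 counts) that spread was not separated from counting noise.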
